A study of Rattus norvegicus with 21 samples.

Results

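The comparison described here is that of the right liver lobe taken from rats 25 days after tumour inoculation with the same lobe taken 10 days after it. It used 6 of the 21 arrays of the study, 3 livers at each time, and every rat gave its liver at 1 time only. The day 25 livers came from rats 7, 8 and 9 and the day 10 livers from rats 1, 2 and 3. All 9 rats of the study were young adult male Fischer 344 animals that were inoculated at the same time with BDEneu cells, a single rat cholangiocarcinoma line named for the neu oncogene, and they carried bile duct cancers growing in the liver. The other 15 arrays measured livers of rats 4, 5 and 6 at day 15, the tumours of all 9 rats, and metastases at day 25. The submitters called the right lobe normal liver, so it is tissue of a tumour-bearing animal outside the sampled tumour. Livers of animals without a tumour were not analysed here, and the description field of the day 25 livers reads day 55 where their titles and source names read day 25, which was used. Days since inoculation and everything else that differed between the 2 sets of rats cannot be told apart.

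Liver answers a cancer or an inflammation elsewhere in the body through the acute phase response, in which interleukin-6 and interleukin-1 act on hepatocytes by way of the factors Stat3 and C/EBP and change the plasma proteins that the liver secretes. Hepatocytes also make fatty acids and triglycerides under Srebp-1c and ChREBP, which follow insulin and sugar. In male rats the pulsed secretion of growth hormone keeps on a set of liver genes that females express little, among them the steroid hydroxylase Cyp2c11 and the alpha-2u-globulins.

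Values are log2 RMA levels, in which 1 unit is a 2-fold difference, and a level can be compared between arrays but not between genes. Of 31099 probe sets on the array, 20826 carry a single gene symbol, and each of 14217 genes was represented by the probe set that was brightest on average across the 21 arrays. Array medians lay between 5.98 and 6.06. Changes are day 25 minus day 10, with the standard error (SE) of a limma fit over all 21 arrays, n = 3 livers at each time, and a gene was called at a Benjamini-Hochberg adjusted p under 0.05.

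The lobe expressed hepatocyte marker genes at both of the compared times. Alb, which encodes albumin, had levels of 14.40, 14.48 and 14.51 in the day 25 livers of rats 7, 8 and 9, against 14.57, 14.59 and 14.60 in the day 10 livers of rats 1, 2 and 3. Cps1, the entry enzyme of the urea cycle, had levels of 13.66, 13.20 and 12.85 in day 25 livers, against 13.20, 13.27 and 13.25 in day 10 livers. The other hepatocyte markers, Cyp2e1, Ttr and Apoa1, had changes of -0.95, -0.52 and 0.34, all uncalled. Cyp2e1 had levels of 12.75, 11.64 and 12.24 in day 25 livers, against 12.83, 13.33 and 13.31 in day 10 livers. For Cyp2e1 and Ttr every day 25 liver lay below every day 10 liver. Erbb2, the rat neu gene, had levels of 5.69, 5.23 and 4.98 in day 25 livers, against 5.61, 5.27 and 5.39 in day 10 livers, and was not called (adjusted p = 0.88).

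The day 25 liver of rat 7 stood apart from the other livers. Its profile correlated with those of the other 8 livers at 0.945 to 0.97 over genes, which are not independent replicates, while the day 25 livers of rats 8 and 9 correlated at 0.99 and the day 10 livers at 0.991 to 0.992 among themselves. On component 1 of the 9 livers, which held 50.5% of the variance, rat 7 lay at 60.6, rats 8 and 9 at 23.9 and 6.8, and the day 10 livers between -25 and -20.8. The same liver carried more transcript of several bile duct and tumour genes. Msln, which encodes mesothelin, had levels of 9.32, 6.36 and 6.20 in day 25 livers, against 5.92, 6.12 and 5.77 in day 10 livers, and Krt19, a bile duct keratin, had 7.77, 5.87 and 4.98 in day 25 livers, against 5.10, 5.42 and 4.86 in day 10 livers. Neither was called (adjusted p = 0.159 and 0.145), and rat 7 was the highest liver for both. Over the 18 measured markers of bile duct epithelium and BDEneu tumour the mean level was 7.16, 6.01 and 5.83 in day 25 livers, against 5.73, 5.81 and 5.75 in day 10 livers. Of these, 2 rose, both cell surface proteins, where 5.33% of all genes rose, and 1 rose without rat 7. Cd24 had levels of 8.31, 6.31 and 5.44 in day 25 livers, against 4.73, 4.94 and 5.09 in day 10 livers, and rose by 1.77 (adjusted p = 0.0381, or 0.138 without rat 7). Tspan8 had levels of 8.56, 7.18 and 6.46 in day 25 livers, against 5.67, 6.04 and 5.29 in day 10 livers, and rose by 1.74 (adjusted p = 0.00771, or 0.0155 without rat 7). Rat 7 was the highest liver for both. The part of these cells in the results was not tested. List counts are therefore given with rat 7 and without it.

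**Figure D1:**
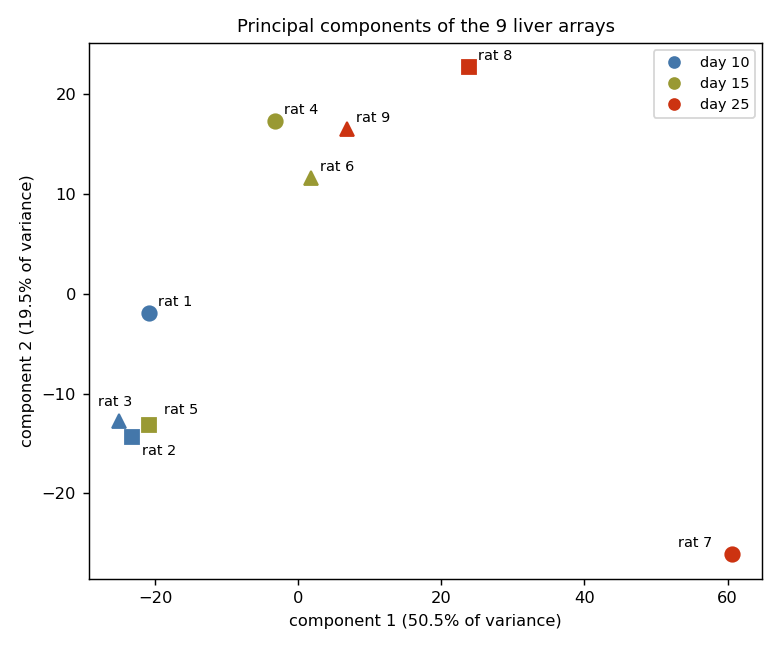
Principal components of the 9 liver arrays, with component 1 (50.5% of variance) on the horizontal axis and component 2 (19.5%) on the vertical axis; each point is the liver of 1 rat, coloured by day and shaped by replicate number. The day 25 liver of rat 7 lies alone at 60.6 on component 1, and the day 15 liver of rat 5 lies among the day 10 livers.

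Between day 25 and day 10, 1294 of the 14217 genes were called, or 9.1%: 758 were higher in day 25 livers (5.33% of all genes) and 536 were lower (3.77%). The median change over all genes was -0.01. A change of at least 2-fold was found for 384 of the called genes (2.7% of all genes), 239 of them higher and 145 lower, and a change of at least 4-fold for 38 and 48. Without rat 7, 738 genes were called (5.19%), 487 higher (3.43%) and 251 lower (1.77%), and 613 of these were among the 1294, which is 83.1% of the calls without rat 7 and 47.4% of the calls with it. Of the called genes, 63.5% had their day 25 value farthest from the day 10 mean in rat 7, 26% in rat 8 and 10.4% in rat 9, and their median change was 0.89, 0.69 and 0.54 in the 3 rats. Centring each array on its median turned the split to 539 higher and 921 lower, with a shift of -0.08 in the median of all genes, and quantile normalisation of the livers gave 708 higher and 643 lower. In bulk tissue fewer cells of a type and less RNA per cell cannot be told apart, nor can more cells and more RNA per cell.

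Genes of the acute phase list led the increases. Which cells their transcripts came from was not tested. A2m, or alpha-2-macroglobulin, a protease inhibitor and a classical acute phase protein of the rat, had levels of 12.80, 13.34 and 13.24 in day 25 livers, against 8.31, 8.46 and 6.85 in day 10 livers. Its change was 5.26 (SE 0.64, adjusted p = 0.00022), a 38.3-fold increase, and the highest day 10 liver lay far below the lowest day 25 liver. Lcn2, or lipocalin 2, which binds iron-carrying siderophores of bacteria, had levels of 9.26, 10.80 and 10.68 in day 25 livers, against 5.10, 5.52 and 5.44 in day 10 livers. It rose by 4.89 (SE 0.83, adjusted p = 0.00266), and all day 25 livers were above all day 10 livers. Genes with the 12 largest changes in each direction were picked among called genes without overlap, so this separation follows from the choice. Of the 1294 called genes, 1267 had groups without overlap. For any called gene named here or below, a lack of overlap therefore adds little to the call. Lbp, which carries bacterial lipopolysaccharide to its receptor, had levels of 13.39, 13.55 and 13.42 in day 25 livers, against 11.88, 11.23 and 11.24 in day 10 livers, and it rose by 2.01 (SE 0.53, adjusted p = 0.0258). Steap4, a metalloreductase, had levels of 11.96, 12.43 and 12.45 in day 25 livers, against 10.55, 10.38 and 10.63 in day 10 livers, and it rose by 1.76 (SE 0.49, adjusted p = 0.0333). The groups did not overlap for either gene, although without rat 7 the adjusted p was 0.0659 for Lbp and 0.0582 for Steap4.

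In all, 5 of the 22 measured acute phase genes rose, none fell, and their median change was 0.23; without rat 7 the count was 3. The remaining riser was Il1rn, the interleukin-1 receptor antagonist, with a change of 1.05 (SE 0.23, adjusted p = 0.0109). Some members were already near the top of the scale at day 10, where the highest value on any array was 14.62. Hp, haptoglobin, had levels of 14.32, 14.31 and 14.29 in day 25 livers, against 14.23, 14.16 and 14.18 in day 10 livers. Orm1, the alpha-1-acid glycoprotein, had levels of 14.29, 14.40 and 14.31 in day 25 livers, against 13.62, 13.32 and 13.43 in day 10 livers; it was not called (adjusted p = 0.507), with an SE of 0.73 that draws on its spread among tumours, although the liver groups did not overlap. Crp had a change of -0.08 and Fga, the fibrinogen alpha chain, one of 0.21, and neither was called.

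Promoter sequence was available from the RefSeq table (assembly GRCr8, 250 bases before to 50 after the start of transcription, written 5′ to 3′ on the gene's strand) for Lcn2 and Steap4, which are shown because both rose. Capitals mark matches to TTGCNNAA, a C/EBP-type pair, or to TTCNNNGAA, a STAT-type palindrome, searched on both strands. The Lcn2 promoter lies at chr3:36081731-36082030 on the minus strand and the Steap4 promoter at chr4:27054720-27055019 on the minus strand.
Lcn2: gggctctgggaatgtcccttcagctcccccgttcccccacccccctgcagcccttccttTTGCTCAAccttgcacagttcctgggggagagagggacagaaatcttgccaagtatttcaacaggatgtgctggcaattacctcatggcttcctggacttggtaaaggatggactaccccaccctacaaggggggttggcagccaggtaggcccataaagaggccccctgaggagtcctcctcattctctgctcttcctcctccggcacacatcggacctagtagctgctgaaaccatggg
Steap4: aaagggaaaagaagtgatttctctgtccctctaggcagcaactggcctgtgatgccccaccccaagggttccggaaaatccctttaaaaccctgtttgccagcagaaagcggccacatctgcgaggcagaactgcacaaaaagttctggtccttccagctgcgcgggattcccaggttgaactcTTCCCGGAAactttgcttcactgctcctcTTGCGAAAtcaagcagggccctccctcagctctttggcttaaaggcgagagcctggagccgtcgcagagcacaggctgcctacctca
Lcn2 held TTGCTCAA, which began 191 bases before the start. Steap4 held TTCCCGGAA, 66 bases before the start, and TTGCGAAA, 37 bases before it. Over all 27457 promoters of the table, 10.5% held the C/EBP-type pair and 8.68% the STAT-type palindrome. Of the 22 measured acute phase genes 18 had a promoter in the table, of which 10 held the C/EBP-type pair and 7 the STAT-type palindrome. A match is a run of letters and not a shown binding site.

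Genes of the cytokine signals that drive the acute phase rose as well. Of 20 measured genes of interleukin-6 and interleukin-1 signalling, 7 rose and none fell, with a median of 0.36, and 7 rose without rat 7. Il1r2, a decoy receptor that takes up interleukin-1 without signalling, had levels of 8.71, 9.09 and 8.44 in day 25 livers, against 5.08, 5.16 and 4.98 in day 10 livers. Its change was 3.67 (SE 0.33, adjusted p = 2.33e-05), or 12.8-fold, with the 2 groups far apart. It is counted here with the neutrophil genes. The signalling receptor Il1r1 had levels of 11.47, 11.63 and 11.97 in day 25 livers, against 10.32, 9.76 and 10.66 in day 10 livers, and rose by 1.44 (SE 0.31, adjusted p = 0.00933). Cebpd, the C/EBP factor induced in the acute phase, had levels of 8.14, 8.97 and 9.02 in day 25 livers, against 7.04, 7.20 and 6.99 in day 10 livers, and rose by 1.63 (SE 0.32, adjusted p = 0.00575). Its other 2 probe sets gave changes of -0.04 and 1.66, and the mean of the 3 gave 1.08. Both genes had their day 25 livers above every day 10 liver.

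Stat3, the factor that carries the interleukin-6 signal, had levels of 11.56, 11.09 and 11.23 in day 25 livers, against 10.68, 10.31 and 10.67 in day 10 livers, and rose by 0.74 (adjusted p = 0.00576). Socs3, its feedback inhibitor, had levels of 7.68, 8.75 and 9.10 in day 25 livers, against 7.71, 7.26 and 6.86 in day 10 livers. Rat 7 lay within the day 10 range for Socs3, and the change was 1.23 with that rat and 1.64 without it (adjusted p = 0.0302 and 0.0074). Junb, Tnfrsf1a and Myd88 rose by 0.86, 0.63 and 0.51. The receptor chains Il6r and Il6st had changes of 0.25 and 0.47, and Cebpb one of -0.22, all uncalled.

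Neutrophil genes were higher in day 25 livers. S100a8, a subunit of calprotectin of neutrophils and monocytes, had levels of 11.67, 11.55 and 10.70 in day 25 livers, against 8.19, 7.10 and 5.31 in day 10 livers; it rose by 4.44 (SE 0.68, adjusted p = 0.0014). S100a9, the other subunit, had levels of 12.29, 12.23 and 11.39 in day 25 livers, against 9.36, 8.31 and 7.72 in day 10 livers, and rose by 3.50 (SE 0.48, adjusted p = 0.00055). The day 10 livers differed more among themselves than the day 25 livers, yet none reached the lowest day 25 level. Csf3r, the receptor for the neutrophil growth factor G-CSF, had levels of 6.74, 7.21 and 6.75 in day 25 livers, against 5.40, 5.55 and 4.62 in day 10 livers, and rose by 1.71 (SE 0.26, adjusted p = 0.00139). Of 11 measured neutrophil genes 5 rose and none fell, with a median of 0.82, and 4 rose without rat 7. The mean level over the list was 7.28, 7.38 and 6.94 in day 25 livers, against 6.01, 5.76 and 5.43 in day 10 livers. The granule genes Camp and Np4 had changes of 0.13 each, uncalled. Serpinb1a, an inhibitor of neutrophil serine proteases, had levels of 10.58, 10.28 and 9.62 in day 25 livers, against 7.01, 6.73 and 6.41 in day 10 livers, and rose by 3.44 (SE 0.35, adjusted p = 7.53e-05). Its other probe set gave a change of 1.0, and the mean of both gave 2.22.

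Among 23 genes of monocytes and recruited macrophages, 10 rose and none fell, with a median of 0.48; without rat 7, 8 rose. Lgals3, or galectin-3, had levels of 10.73, 10.63 and 10.34 in day 25 livers, against 9.20, 9.15 and 9.42 in day 10 livers, and rose by 1.31 (SE 0.16, adjusted p = 0.00022). Gpnmb, a glycoprotein of lipid-laden macrophages, had levels of 10.68, 10.07 and 9.61 in day 25 livers, against 8.78, 8.89 and 8.94 in day 10 livers, and rose by 1.25 (adjusted p = 0.00343). Coro1a, Cd53 and Ptprc, which are found on leukocytes at large, rose by 1.25, 1.02 and 0.93. All of these were higher in each day 25 liver than in any day 10 liver. Ccr2, Spp1 and Trem2 had changes of -0.03, 0.02 and -0.15 and were not called.

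For the resident Kupffer cells, 4 of 9 genes rose, with a median of 0.70, and 1 of 9 without rat 7. Cd163, the haemoglobin scavenger receptor, had levels of 10.06, 8.98 and 8.64 in day 25 livers, against 7.96, 7.95 and 8.16 in day 10 livers, and rose by 1.20 (adjusted p = 0.0194, or 0.0825 without rat 7). Rat 7 was the highest of the 6 livers for Cd163. Clec4f, a lectin of Kupffer cells, had levels of 10.58, 10.33 and 10.61 in day 25 livers, against 10.27, 10.18 and 10.47 in day 10 livers and was not called. The 3 chains of C1q, which macrophages make, rose by 0.83 for C1qa, 1.01 for C1qb and 0.97 for C1qc. Together with Cfd at 1.14 these were the 4 of 24 complement genes that rose, and 1 of 24 rose without rat 7. C3, made by hepatocytes, had a change of 0.02. Its levels were 14.13, 14.28 and 14.28 in day 25 livers, against 14.25, 14.15 and 14.22 in day 10 livers. These lay near the highest value on any array, 14.62, so a rise of C3 could have been missed.

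Of 24 T and NK cell genes none rose and 1 fell, where 5.33% of all genes rose and 3.77% fell; it was the granzyme gene Gzma at -1.04 (adjusted p = 0.0139, or 0.0695 without rat 7), and of 8 B and plasma cell genes none was called, at an unadjusted limma p under 0.05 either, while 1 was lower without rat 7. Of 27 chemokines 1 rose and 3 fell, and without rat 7, 1 rose and none fell. Ccl21, which draws lymphocytes and dendritic cells, had levels of 9.98, 9.37 and 9.39 in day 25 livers, against 7.01, 6.64 and 6.38 in day 10 livers, and rose by 2.90 (SE 0.76, adjusted p = 0.0254, or 0.0873 without rat 7). Cxcl9, Cxcl10 and Cxcl11, the interferon-induced ligands of Cxcr3, fell, with changes of -1.60, -0.91 and -1.99. Cxcl1, a neutrophil attractant, had levels of 5.90, 10.05 and 10.62 in day 25 livers, against 7.80, 6.77 and 8.12 in day 10 livers. Rat 7 was lowest and rats 8 and 9 highest for Cxcl1, and it was called only without rat 7, at 2.77 (adjusted p = 0.023).

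Interferon response genes fell with rat 7 in the fit: 6 of 31 fell and none rose, with a median of -0.50, and without rat 7 limma called none. Besides the 3 chemokines these were Isg15 at -1.03, Usp18 at -0.98 and Stat2 at -0.50. The mean level over the list was 7.17, 7.69 and 7.95 in day 25 livers, against 8.18, 7.98 and 8.25 in day 10 livers, so that rat 7 was lowest.

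Genes of stellate cells, pericytes and matrix rose without exception among the called members: 12 of 37 rose, the median was 0.84, and 6 rose without rat 7. Rgs5, a regulator of G protein signalling and a marker of pericytes, had levels of 8.74, 9.56 and 9.08 in day 25 livers, against 6.14, 6.17 and 6.38 in day 10 livers; it rose by 2.90 (SE 0.65, adjusted p = 0.0113). Dcn, the proteoglycan decorin, had levels of 11.66, 10.71 and 9.64 in day 25 livers, against 7.76, 9.21 and 8.00 in day 10 livers, and rose by 2.34 (SE 0.40, adjusted p = 0.003). Timp1, an inhibitor of matrix proteases, had levels of 9.02, 9.63 and 9.12 in day 25 livers, against 7.50, 7.77 and 7.32 in day 10 livers, and rose by 1.73 (SE 0.36, adjusted p = 0.00773). The livers of the 2 times did not overlap in any of the 3. Hgf, the hepatocyte growth factor of stellate and endothelial cells, rose by 1.34 (SE 0.19, adjusted p = 0.000624), and Cygb, cytoglobin of quiescent stellate cells, by 1.36. The basement membrane collagens Col4a1 and Col4a2 rose by 1.65 and 1.38 and Col1a2 by 1.42, all 3 uncalled without rat 7. Lox, which cross-links collagen, rose by 1.90 with overlapping groups and was not called without rat 7 (adjusted p = 0.0389 and 0.0821). Among the 25 uncalled members Acta2 had a change of 0.41, Tagln 0.03, Postn 0.14 and Col1a1 1.47. Vwf, from vessel endothelium, had levels of 8.61, 8.15 and 8.20 in day 25 livers, against 7.21, 7.59 and 7.07 in day 10 livers. It was the 1 of 20 vessel genes that rose, with rat 7 and without it, at 1.04 (adjusted p = 0.00304). With rat 7 that share was near the 5.33% of all genes that rose.

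Other genes among the 12 largest increases were Fst, Gucy2c, Fabp4 and Olr1. Fst, or follistatin, which binds activins, had levels of 11.14, 7.68 and 7.88 in day 25 livers, against 5.83, 4.65 and 4.59 in day 10 livers. Rat 7 was the highest by far, and the increase was 3.88 with it (SE 0.68, adjusted p = 0.00312) and 2.76 without it. Gucy2c, the guanylate cyclase receptor known from the gut lining, had levels of 9.65, 8.74 and 6.66 in day 25 livers, against 4.87, 4.87 and 4.84 in day 10 livers, and rose by 3.49 (SE 0.69, adjusted p = 0.00603). Fabp4, a fatty acid carrier of adipocytes, macrophages and endothelium, had levels of 9.94, 8.30 and 6.66 in day 25 livers, against 5.24, 5.60 and 5.19 in day 10 livers, and rose by 2.95 (SE 0.57, adjusted p = 0.00555). For both genes the day 25 livers ran from rat 9, the lowest, to rat 7, the highest. The adipocyte genes Adipoq, Plin1 and Lep lay between 4.86 and 5.73 in these 6 livers and none was called. Olr1, a scavenger receptor for oxidised lipoprotein, had levels of 6.65, 7.08 and 6.96 in day 25 livers, against 3.76, 4.33 and 3.93 in day 10 livers, and rose by 2.89 (SE 0.39, adjusted p = 0.00055).

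**Figure D2:**
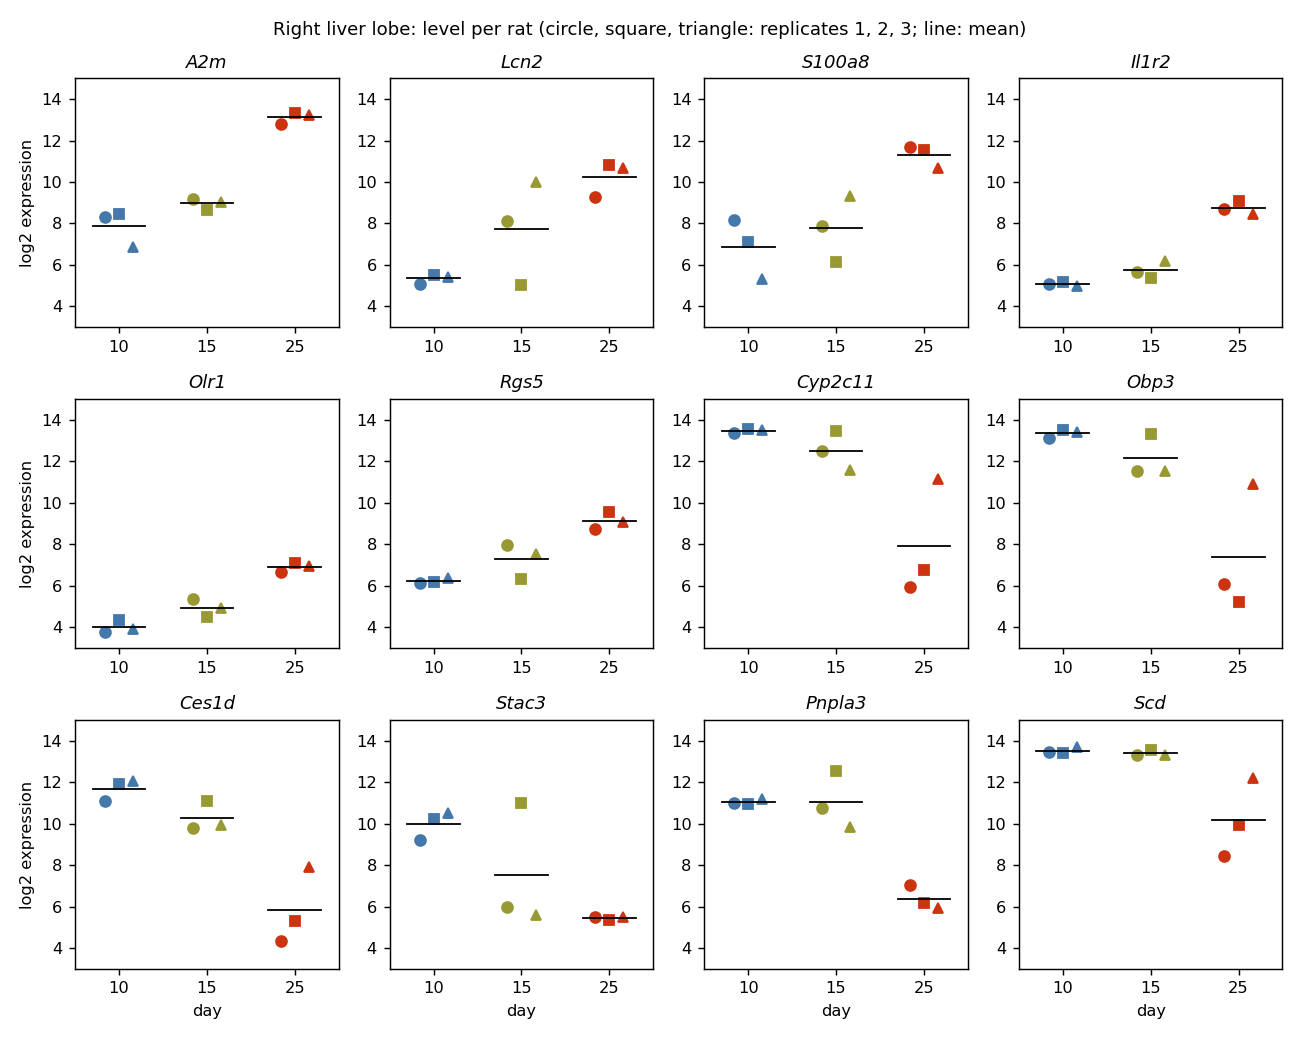
Log2 level of 12 genes in each liver at day 10, 15 and 25, with a point for each rat and a line at the mean of each day. A2m, Lcn2, S100a8, Il1r2, Olr1 and Rgs5 lie higher at day 25 than at day 10 in every rat, and Cyp2c11, Obp3, Ces1d, Stac3, Pnpla3 and Scd lie lower; the day 25 levels of Cyp2c11 span 5.93 to 11.13. All 12 genes were picked among called genes whose groups did not overlap.

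Genes for making fatty acids and triglycerides formed the list with the largest share of called members: of 29 measured, 15 fell and 1 rose, with a median change of -1.68. Without rat 7, 14 fell and none rose, with a median of -1.55. Srebf1, which encodes Srebp-1, had levels of 8.23, 9.02 and 9.33 in day 25 livers, against 11.26, 10.99 and 11.15 in day 10 livers, and fell by 2.27 (SE 0.40, adjusted p = 0.00313). Mlxipl, which encodes ChREBP, had levels of 7.53, 7.69 and 7.87 in day 25 livers, against 8.68, 9.01 and 8.87 in day 10 livers, and fell by 1.15 (SE 0.16, adjusted p = 0.000624). Every day 25 liver lay below every day 10 liver for both factors.

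The enzymes of the route showed the same order of groups. Acly, which makes cytosolic acetyl-CoA from citrate, had levels of 8.66, 9.28 and 9.63 in day 25 livers, against 12, 12.18 and 12.14 in day 10 livers; it fell by 2.92 (SE 0.39, adjusted p = 0.000491). Fasn, the fatty acid synthase, had levels of 7.82, 9.70 and 10.49 in day 25 livers, against 12.31, 12.27 and 12.51 in day 10 livers, and fell by 3.03 (SE 0.46, adjusted p = 0.00131). Me1, the malic enzyme that supplies NADPH, had levels of 7.62, 7.60 and 7.94 in day 25 livers, against 10.17, 10.97 and 10.70 in day 10 livers, and fell by 2.89 (SE 0.48, adjusted p = 0.00235). Rat 7 was the lowest liver for Acly and Fasn and lay between the others for Me1. The carboxylases Acaca and Acacb fell with changes of -1.28 and -1.73, the elongases Elovl5 and Elovl6 with -1.93 and -2.12, the acetyl-CoA synthetase Acss2 with -1.82 and the acyltransferase Gpam with -1.68; Acaca was not called without rat 7 (adjusted p = 0.0941).

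The desaturases fell with a wider spread among the day 25 livers. Scd, which makes monounsaturated fatty acids, had levels of 8.43, 9.95 and 12.21 in day 25 livers, against 13.47, 13.43 and 13.70 in day 10 livers. Its change was -3.34 (SE 0.94, adjusted p = 0.0359), and without rat 7 it was -2.45 and uncalled (adjusted p = 0.164). Fads2 had levels of 5.90, 7.90 and 9.89 in day 25 livers, against 11.38, 10.97 and 11.31 in day 10 livers, and Fads1 had 7.59, 9.90 and 11.31 in day 25 livers, against 12.78, 12.69 and 12.88 in day 10 livers. These 2 desaturases of polyunsaturated fatty acids fell, with changes of -3.33 and -3.19 and adjusted p = 0.0103 and 0.00434. In all 3 genes rat 7 was lowest and rat 9 nearest the day 10 livers.

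Pnpla3, a lipid droplet protein under Srebp-1c control, was different in this respect. It had levels of 7.04, 6.17 and 5.93 in day 25 livers, against 11.02, 10.97 and 11.18 in day 10 livers, and fell by 4.68 (SE 0.87, adjusted p = 0.00462), a 25.6-fold decrease that was -5.01 without rat 7. Its other 2 probe sets gave changes of -5.63 and -2.65. Lpl, lipoprotein lipase, was the member that rose, with levels of 8.86, 8.49 and 6.77 in day 25 livers, against 6.05, 6.38 and 6.01 in day 10 livers, and a change of 1.90 (adjusted p = 0.0233, or 0.11 without rat 7). The acyltransferases of the last step, Dgat1 and Dgat2, had changes of 0.06 and -0.51 and the droplet coat gene Plin2 one of -0.27, all uncalled. Of 21 cholesterol genes 3 fell, namely Fdft1, Fdps and Pmvk, with changes of -1.23, -1.20 and -0.87; without rat 7, 3 also fell, with Insig1 (-1.60, adjusted p = 0.0144) in place of Fdft1 (adjusted p = 0.094). None of 30 genes of fatty acid oxidation was called, with 3 higher and 4 lower at an unadjusted limma p under 0.05, while 3 were called higher without rat 7.

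Motif searches were also run over these promoters. Of the 29 measured genes 23 had a promoter in the table; 2 held the E-box CACGTG, which 6.65% of all promoters held, and 2 the C/EBP-type pair. None held the STAT-type palindrome or TCACNCCAC, a sterol regulatory element that 1.13% of all promoters held and that was added after values were seen. No match was present in the windows of Pnpla3, Scd, Fads1 or Fads2, which says only that these letters are absent there.

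**Figure D3:**
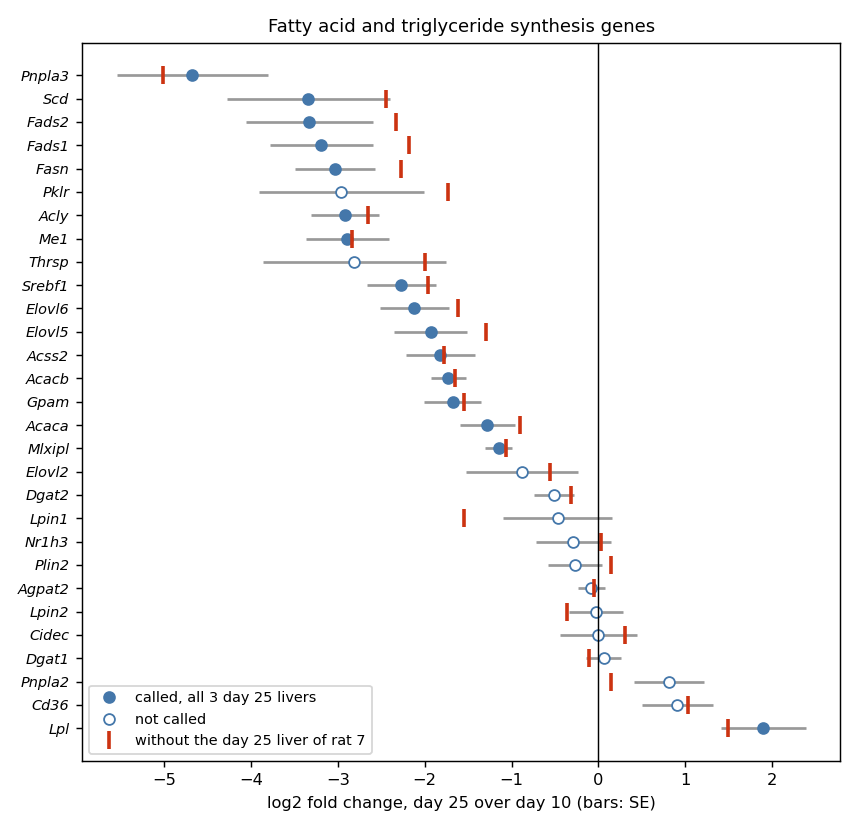
Change of 29 genes of fatty acid and triglyceride synthesis in the right liver lobe, day 25 minus day 10 on the log2 scale, with the standard error as a bar; filled points were called and the red tick marks the change without rat 7. Called members lie left of 0 except Lpl at 1.90, from -1.15 for Mlxipl to -4.68 for Pnpla3.

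Genes with higher expression in male than in female rat liver had the lowest median change of the 50 lists. Of 16 measured, 6 fell and none rose, the median change was -2.31, and the mean level was 8.24, 9.44 and 10.86 in day 25 livers, against 11.89, 11.94 and 12.08 in day 10 livers. Cyp2c11, the male-specific androgen hydroxylase, had levels of 5.93, 6.76 and 11.13 in day 25 livers, against 13.35, 13.57 and 13.53 in day 10 livers. It fell by 5.54 (SE 1.32, adjusted p = 0.0162), or 46.6-fold. Rats 7 and 8 were far below rat 9, which was itself below every day 10 liver. Without rat 7 the change was -4.54 and was not called (adjusted p = 0.0788).

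Obp3, an alpha-2u-globulin that carries small hydrophobic molecules, had levels of 6.07, 5.23 and 10.89 in day 25 livers, against 13.13, 13.51 and 13.44 in day 10 livers. It fell by 5.96 (SE 1.48, adjusted p = 0.0194), and without rat 7 its change was -5.30 (adjusted p = 0.0807). Mup5, of the same family, had levels of 5.84, 8.48 and 11.50 in day 25 livers, against 12.63, 12.74 and 12.69 in day 10 livers, with a change of -4.08 (SE 1.15, adjusted p = 0.0358), or -2.70 and uncalled without rat 7. Its other 2 probe sets gave -2.62 and -1.09. Again rat 9 was nearest the day 10 livers. Their promoters are shown because they are near copies: the Obp3 promoter lies at chr5:79640626-79640925 and the Mup5 promoter at chr5:79999646-79999945, both on the minus strand of GRCr8, with the C/EBP-type pair in capitals.
Obp3: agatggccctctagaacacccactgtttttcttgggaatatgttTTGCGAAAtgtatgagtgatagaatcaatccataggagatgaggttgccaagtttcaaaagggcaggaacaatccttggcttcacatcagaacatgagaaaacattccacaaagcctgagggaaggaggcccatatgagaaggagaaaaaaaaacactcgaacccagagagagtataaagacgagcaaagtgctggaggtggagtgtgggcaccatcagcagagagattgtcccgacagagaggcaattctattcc
Mup5: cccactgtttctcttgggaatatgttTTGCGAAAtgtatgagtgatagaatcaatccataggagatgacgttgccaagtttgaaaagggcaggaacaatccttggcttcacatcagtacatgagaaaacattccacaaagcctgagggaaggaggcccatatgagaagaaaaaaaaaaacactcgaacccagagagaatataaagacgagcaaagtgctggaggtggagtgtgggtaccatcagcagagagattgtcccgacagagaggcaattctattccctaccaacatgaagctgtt
Of 281 aligned bases, 274 were identical, or 97.5%. Probe and transcript sequences were not compared, so whether the probe sets of these related genes share signal was not tested, and their separate values are uncertain. Both held TTGCGAAA, beginning 206 bases before the start in Obp3 and 224 in Mup5. Of the 16 male-biased genes 12 had a promoter in the table, of which 4 held the C/EBP-type pair and none the STAT-type palindrome.

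Without rat 7, Hsd11b1 was the sole male-biased gene still called. This regenerator of active glucocorticoid had levels of 11.69, 10.79 and 11.35 in day 25 livers, against 12.45, 12.84 and 12.60 in day 10 livers, and fell by 1.35 (adjusted p = 0.00555, or 0.00592 without rat 7). Slco1a1 and Hao2 fell, with changes of -2.35 and -3.03, and were not called without rat 7. Sult1e1, the oestrogen sulfotransferase, had levels of 4.07, 10.09 and 12.45 in day 25 livers, against 13.05, 13.26 and 13.40 in day 10 livers, and Cyp3a2 had 8.25, 10.56 and 12.33 in day 25 livers, against 12.69, 12.70 and 12.54 in day 10 livers. Neither was called, with adjusted p = 0.103 and 0.265, and the order of the day 25 livers was that of Cyp2c11.

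Of 13 genes with higher expression in females 2 rose, and 2 without rat 7. Cux2, a transcription factor of female liver, had levels of 5.70, 5.76 and 5.96 in day 25 livers, against 4.43, 4.44 and 4.41 in day 10 livers. Its increase of 1.38 had the lowest adjusted p of the genes named here (SE 0.09, adjusted p = 2.88e-07), it was as large without rat 7 at 1.44, and its other probe set gave 1.23. Prlr, the prolactin receptor, had levels of 7.11, 6.83 and 8.25 in day 25 livers, against 6.54, 6.41 and 6.10 in day 10 livers, and rose by 1.05 (adjusted p = 0.0212), but was not called in a fit of the 9 livers alone (adjusted p = 0.109). Cyp2c12, the female-specific steroid hydroxylase, had levels of 11.39, 11.27 and 9.91 in day 25 livers, against 9.56, 7.05 and 8.86 in day 10 livers and was not called (adjusted p = 0.156). In the growth hormone and IGF list, Ghr, the hormone's receptor, had levels of 8.56, 9.85 and 11.15 in day 25 livers, against 11.62, 11.68 and 11.72 in day 10 livers, uncalled at -1.82 (adjusted p = 0.286). Igf1 had a change of -0.28, also uncalled. Of the 21 genes Prlr and Ptpn1 alone were called, a share near the 9.1% of all genes that were called. Ptpn1, at 0.49 (adjusted p = 0.0497), was not called without rat 7 (0.0862), with the 9 livers alone (0.13) or after median centring (0.131), and without rat 7 Igfbp3 was called lower (0.0469).

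Several further genes that fell most are not in the sex-biased lists used here, and sex bias was not examined beyond those lists. Ces1d, a carboxylesterase that hydrolyses triglyceride, had levels of 4.35, 5.29 and 7.92 in day 25 livers, against 11.10, 11.93 and 12.05 in day 10 livers, and fell by 5.84 (SE 0.84, adjusted p = 0.000717), or 57.3-fold. Stac3, an adaptor known from skeletal muscle, had levels of 5.52, 5.36 and 5.48 in day 25 livers, against 9.20, 10.21 and 10.52 in day 10 livers, and fell by 4.52 (SE 1.05, adjusted p = 0.0139). The muscle gene Acta1 was at 9.88 in the day 10 liver of rat 2, against 4.25 and 4.35 in rats 1 and 3. Myl1 was at 7.71 in rat 2, against 4.3 and 4.1 in rats 1 and 3. Any part of muscle tissue in the Stac3 levels was not tested. In Stac3 the 3 day 25 livers were alike, while in Ces1d rat 9 was the highest of them. Car3, carbonic anhydrase III, had levels of 4.74, 7.55 and 12.10 in day 25 livers, against 13.58, 14.01 and 13.78 in day 10 livers, and fell by 5.66 (SE 1.58, adjusted p = 0.0337, or 0.159 without rat 7). Dhrs7l1 and Nrep fell, with changes of -5.36 and -3.95 and adjusted p = 0.00158 and 0.00359, and both were called without rat 7. Of the 24 genes with the largest changes, 17 stayed called whichever 1 of the 6 livers was left out.

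Genes of drug and bile acid handling fell more often than they rose. Among 41 conjugating enzymes 10 fell and none rose (5 without rat 7). Gstm2, a glutathione transferase, had levels of 11.04, 9.04 and 9.52 in day 25 livers, against 12.03, 12.59 and 12.28 in day 10 livers, and fell by 2.43 (SE 0.48, adjusted p = 0.00594). Gstt3, Ugt2b1 and Mgst2 fell, with changes of -1.99, -2.35 and -0.89. Of 26 bile acid genes 6 fell and 1 rose (2 and 1 without rat 7). Slco1a4, an uptake carrier of organic anions, had levels of 7.60, 8.08 and 8.68 in day 25 livers, against 10.63, 11.23 and 11.55 in day 10 livers, and fell by 3.02 (SE 0.47, adjusted p = 0.00154). Abcc3, which exports conjugates into blood, had levels of 8.70, 7.11 and 6.11 in day 25 livers, against 5.50, 5.21 and 5.35 in day 10 livers, and rose by 1.96 (adjusted p = 0.00973). For Slco1a4 and Abcc3 alike rat 7 was farthest from the day 10 livers. Cyp7a1, which starts the classical route from cholesterol to bile acids, had a change of 0.78 and the export pump Abcb11 one of -0.29, uncalled.

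Among 39 genes of cytochrome P450 families 1 to 4, 4 fell and 1 rose; without rat 7, 2 fell and 1 rose, and in a fit of the 9 livers alone 10 fell and 2 rose. Cyp4b1 was the riser, with levels of 8.91, 9.19 and 7.97 in day 25 livers, against 6.57, 6.80 and 6.90 in day 10 livers, and a change of 1.93 (SE 0.25, adjusted p = 0.000412). Cyp2u1, Cyp2t1 and Cyp2d4 fell besides Cyp2c11, with changes of -0.96, -0.89 and -0.69; Cyp2t1 and Cyp2c11 were not called without rat 7. Of 22 genes regulated by Nrf2 or protecting from oxidants, 8 fell and 3 rose (8 and 2 without rat 7). Hmox1, which breaks down haem, had levels of 11.87, 10.17 and 10.44 in day 25 livers, against 8.84, 8.34 and 8.42 in day 10 livers, and rose by 2.29 (SE 0.40, adjusted p = 0.00306). Gpx2, a glutathione peroxidase, rose by 2.52 and Nqo1, a quinone reductase, by 1.05. Tkt and Pgd, of the pentose phosphate pathway, fell with changes of -1.39 and -0.98, and Gclc and Gclm, the subunits of the enzyme that starts glutathione synthesis, with -1.07 and -0.87, all 4 also called without rat 7.

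In glucose and glycogen metabolism 5 of 26 genes fell and 1 rose (5 and none without rat 7). Ppp1r3b, which brings a phosphatase to glycogen, had levels of 7.61, 6.85 and 7.88 in day 25 livers, against 10.18, 10.33 and 10.43 in day 10 livers, and fell by 2.86 (SE 0.40, adjusted p = 0.000667). Gbe1, the glycogen branching enzyme, and Pygl, the liver glycogen phosphorylase, fell, with changes of -1.44 and -1.20. Pck1, of glucose synthesis, had a change of -0.01. All 33 respiratory chain genes had values below 0, with a median of -0.26, and 6 fell, as they did in number without rat 7; the called changes ran from -0.38 for Uqcrc2 to -0.60 for Sdha, and centring on array medians raised the count to 12.

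Iron and metal genes moved in both directions, 5 up and 3 down of 26, and 3 up and none down without rat 7. Mt2A, a metallothionein, had levels of 13.71, 12.03 and 12.44 in day 25 livers, against 9.94, 9.46 and 10.78 in day 10 livers, and rose by 2.67 (SE 0.60, adjusted p = 0.012, or 0.0599 without rat 7). Lcn2, Hmox1, Cd163 and Id1 were the other 4, and Slc39a4, Fech and Hfe fell, with changes of -1.15, -0.97 and -0.72. Hamp, which encodes the iron hormone hepcidin, had a change of 0.93 and was not called. Of 18 hepatocyte transcription factors and nuclear receptors 3 fell, namely Nr1i3, Rxra and Foxa1, with changes of -1.39, -0.75 and -0.74, of which Foxa1 alone was called without rat 7 (adjusted p = 0.0881, 0.0856 and 0.0455), and Hnf4a had a change of 0.04. Of 20 hypoxia genes 3 rose and 1 fell, and none was called without rat 7.

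No call was made among 16 plasma carriers that fall in an acute phase, 19 apolipoprotein genes, 37 genes of the unfolded protein response and secretion, 38 cell cycle genes, 27 proteasome genes and 10 heat shock genes. In those lists the medians lay between -0.26 and 0.19, and at an unadjusted limma p under 0.05 there were 1, 1, 5, 2, 9 and 1 genes, out of 3540 over all genes. Without rat 7, 2 cell cycle genes were called higher and none in the other 5 lists. Ttr, the plasma carrier transthyretin, had levels of 13.60, 13.49 and 13.65 in day 25 livers, against 14.10, 14.17 and 14.03 in day 10 livers, without a call, and the groups did not overlap. Among these carriers the groups overlapped for Apoa1, Serpina7, Ambp, Azgp1 and F12 alone, and the others were lower in day 25 livers. The SE of such genes draws on their spread among tumours. It was 0.52 for Alb, against 0.08 with the 9 livers alone, and 0.72 for Apoc3, against 0.10. Both were uncalled there too (limma adjusted p = 0.385 and 0.167). A missing call does not show an unchanged gene. Over all genes the 3 day 25 and 3 day 10 arrays did not overlap for 30.3%.

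**Figure D4:**
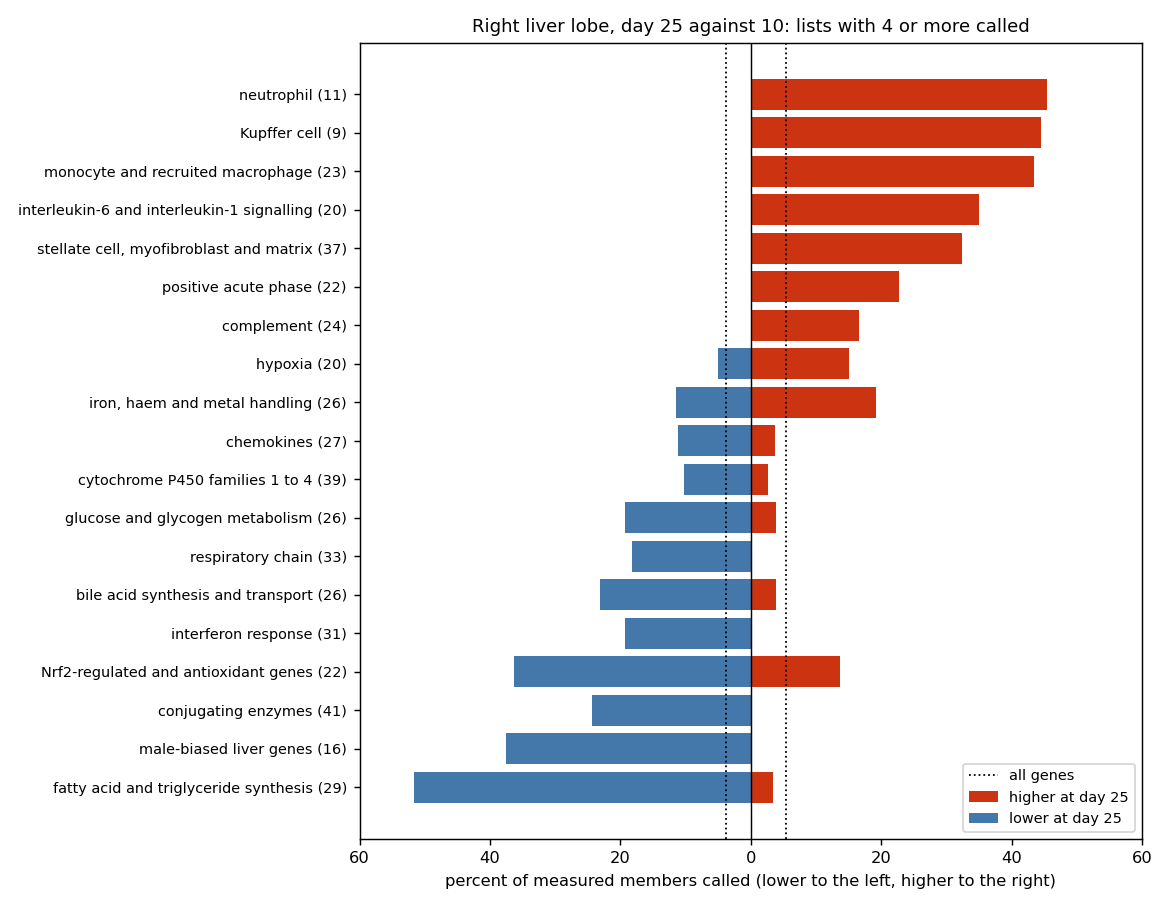
Percent of measured members called lower (left of 0) or higher (right of 0) in day 25 than in day 10 right liver lobes, for each gene list with 4 or more called members; dotted lines mark the shares over all genes, 3.77% lower and 5.33% higher. Fatty acid and triglyceride synthesis and male-biased genes reach farthest to the left, and neutrophil, Kupffer cell and monocyte genes farthest to the right.

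The day 15 livers of rats 4, 5 and 6 did not all lie between the other 2 times. A2m had day 15 levels of 9.18, 8.66 and 9.06, above all day 10 livers and below all day 25 livers. Lcn2 had day 15 levels of 8.13, 5.02 and 9.99, with rat 5 below every day 10 liver. Lbp had 13.08, 11.03 and 13.22 and Stac3 had 5.97, 11.02 and 5.58 at day 15, so that rats 4 and 6 lay near the day 25 livers and rat 5 near or beyond the day 10 livers. Cyp2c11, at 12.52, 13.45 and 11.61, and Srebf1, at 10.42, 11.52 and 10.02, kept rat 5 within or beyond the day 10 range too. Scd, at 13.34, 13.56 and 13.34, was close to the day 10 livers in all 3 rats.

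The liver change was then set against the change of the tumours of the same rats over the same days. In the tumours 8 genes were called between day 25 and day 10 (0.0563%). The difference of the 2 changes was called for 208 genes (1.46%), of which 155 (1.09%) had a liver change above the tumour change and 53 (0.373%) one below it, and with rat as a random block 402 were called. A2m changed by 5.26 in liver and by -0.27 in tumour, a difference of 5.53 (SE 0.90, adjusted p = 0.0118); in the tumours its levels were 9.92, 12.88 and 12.86 at day 25, against 12.10, 11.88 and 12.49 at day 10. The A2m levels of the day 25 livers thus lay close to those of the tumours of rats 8 and 9. Il1r2 changed by 3.67 in liver and by 0.93 in tumour (difference 2.75, SE 0.47, adjusted p = 0.0125). Ccl21 and Rgs5 had liver changes of 2.90 each and tumour changes of -1.86 and -1.23. Cux2 differed by 1.02 (adjusted p = 0.00276) and Coro1a by 1.97 (adjusted p = 0.00779). Of the 110 called genes named by rule, 23 had a called difference, and it was above 0 in 22, Gstt3 being the exception at -1.74. The 110 were chosen by their liver change, which is part of the difference, so this count follows in part from the choice. All 23 were called with rat as a block, and 7 stayed called whichever 1 of the 12 arrays was left out, namely A2m, Il1r2, Cux2, Lgals3, Coro1a, Cd53 and Fcgr2b. For the decreases in lipid synthesis and male-biased genes no difference was called among the named genes. No tumour change of these genes was called either, though some were as large as in liver. Cyp2c11 changed by -5.54 in liver and -5.58 in tumour (SE of the difference 1.87), and Obp3 by -5.96 in both (SE 2.09). Scd changed by -3.34 and -4.09 (SE 1.33). Pnpla3 and Fads1 had smaller changes in tumour, -2.42 and -0.54, against -4.68 and -3.19 in liver. These differences were uncalled too (SE 1.23 and 0.83, limma adjusted p = 0.355 and 0.12).

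**Figure D5:**
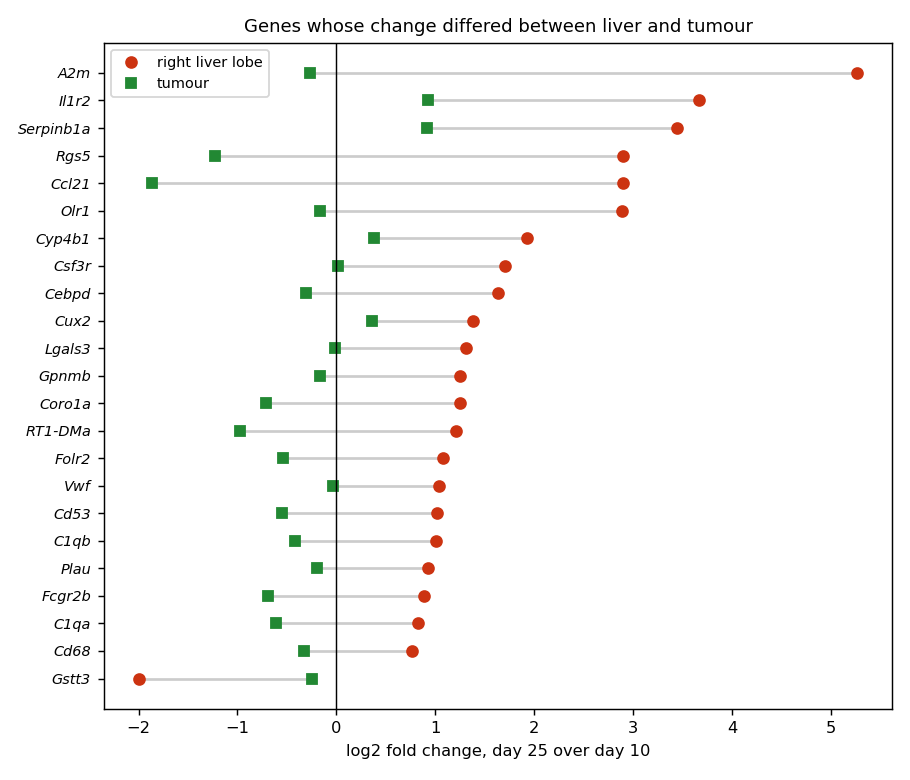
Change from day 10 to day 25 on the log2 scale of the 23 named genes whose change differed between right liver lobe (red circles) and tumour (green squares) of the same rats. The liver point lies right of the tumour point in 22 genes, most for A2m at 5.26 against -0.27, and left of it for Gstt3.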

How the data were processed

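Per the labels' protocols, livers were snap-frozen, total RNA was extracted with Trizol and cleaned on Qiagen columns, and biotin-labelled cRNA was hybridised to Affymetrix arrays. The deposited values are log2 levels made by the authors with RMA, per the submitters' processing notes, which name no version. RMA equalises the arrays' distributions, so a shift of all genes would not show. The number of arrays limits the precision, since arrays give no read depth.

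From the 31099 probe sets, 57 controls were left out, 436 with several symbols and 9780 with no symbol or no entry in the platform annotation were not used, and 20758 single-symbol probe sets above entered the gene table. For the 4525 genes with several probe sets the one with the highest mean was kept. No filter on low values was applied. The fit was limma 3.58.1 (R 4.3.3), lmFit and eBayes, with 7 group means over all 21 arrays and Benjamini-Hochberg adjustment over 14217 genes. One spread per gene is shared by livers and tumours, which widens the SE of genes that vary more among tumours and narrows that of genes that vary more among livers (Fads1 0.59, against 0.84 with the 6 livers alone, adjusted p = 0.0886; Fst 0.68, against 0.92, adjusted p = 0.072). The liver and tumour changes were compared by an interaction term. Deviations from the group means correlated at 0.04 to 0.297 between liver and tumour of the same rat over the 9 rats, and a fit with rat as a random block was an alternative. The fits were tested on simulated data.

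The comparison and the 50 gene lists (1184 entries, of which 1047 were measured, 5 of them under an older symbol, 959 distinct genes) were chosen with earlier results of these data known. Named genes were, for each direction, the 12 called genes that changed most and had no overlap between groups, without provisional names, and from each list the called members that changed most (4 at most) and the uncalled one with the highest liver level, with Alb, Erbb2, A2m, Cyp2c11, Igf1 and Krt19 always; this gave 160 genes, 110 of them called. Other list members given with a value, among them Krt7, Msln, Cxcl1, Sult1e1 and Ghr, were chosen after their values were seen. Promoters came from the RefSeq table of GRCr8, and A2m and Lbp are named only.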

Additional observations from a re-analysis of the deposited data

Results flagged for a closer look

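For 23 named genes the change from day 10 to day 25 differed between the right liver lobe and the tumours of the same rats by the interaction term of the limma fit, where 1.46% of all genes did. The called named genes were chosen by their liver change, which is part of this difference. Their share therefore cannot be set against that of all genes. Differences are liver change minus tumour change on the log2 scale, with n = 3 arrays per tissue and day. The largest were 5.53 for A2m, 4.77 for Ccl21, 4.13 for Rgs5, 3.05 for Olr1, 2.75 for Il1r2 and 2.52 for Serpinb1a. In the tumours Rgs5 had levels of 6.75, 8.79 and 9.41 at day 25, against 9.43, 9.68 and 9.54 at day 10, and Ccl21 had 5.61, 8.02 and 8.38 at day 25, against 8.92, 9.26 and 9.43 at day 10, so that the tumour of rat 7 was lowest for both.

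Others belong to the monocyte (Coro1a, Cd53, Fcgr2b, Gpnmb, Lgals3), Kupffer cell (Folr2, Cd68), neutrophil (Csf3r), complement (C1qa, C1qb) and MHC class II (RT1-DMa) lists, and Fcgr2b is also in the sinusoid endothelium list. The differences were 2.19 for RT1-DMa, 1.97 for Coro1a, 1.69 for Csf3r, 1.63 for Folr2, 1.58 for Cd53, 1.58 for Fcgr2b, 1.45 for C1qa, 1.43 for C1qb, 1.42 for Gpnmb, 1.32 for Lgals3 and 1.10 for Cd68. Coro1a had tumour levels of 9.20, 9.17 and 9.43 at day 25, against 9.94, 10.07 and 9.94 at day 10, and RT1-DMa had 9.03, 9.08 and 9.62 at day 25, against 10.12, 10.29 and 10.24 at day 10. Every day 25 tumour lay below every day 10 tumour for both genes, although the tumour changes of -0.71 for Coro1a and -0.97 for RT1-DMa were not called (adjusted p = 0.158 and 0.215).

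The remaining differences were 1.94 for the factor Cebpd, 1.56 for Cyp4b1, 1.13 for the plasminogen activator Plau, 1.06 for Vwf and 1.02 for Cux2, and -1.74 for the glutathione transferase Gstt3. Without 1 of the 12 arrays at a time, A2m ranged from 4.54 to 6.02 with adjusted p of at most 0.0434, and Cux2 from 0.94 to 1.08 with adjusted p of at most 0.0132. Of the 23 genes, 16 were no longer called without at least 1 array, among them Ccl21 (adjusted p up to 0.108), Rgs5 (up to 0.108) and Cebpd (up to 0.128).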

How the results depend on the processing

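The count of 1294 called genes was 557 with the 6 compared arrays alone and 54 with Holm adjustment; for genes higher in day 25 livers (758) these were 329 and 37, and for genes lower (536) 228 and 17. The count of lower genes was also 347 with the 9 livers alone, 921 with array median centring and 323 among genes above the median of gene means. Without 1 liver at a time the total ranged from 626 to 1651, the higher genes from 365 to 1032 and the lower genes from 231 to 619; the total was 738 without rat 7, 626 without rat 2 and 633 without rat 3, and the higher genes were 489 without rat 8. The 208 genes whose liver and tumour changes differed were 402 with rat as a random block and 122 with the replicate block, and 30 to 402 without 1 array (57 without the liver of rat 8, 402 without that of rat 9, and 93, 38 and 49 without those of rats 1, 2 and 3; 40 and 63 without the tumours of rats 7 and 8, and 55, 33 and 30 without those of rats 1, 2 and 3), the tumour arrays being left out after the data were seen. Replicate numbers did not pair the livers: same-numbered livers had deviations correlated at -0.158, -0.117 and -0.039, 0 of 3 correlated best with its own number, and the replicate block gave 1305 genes. Of the 110 called named genes, 46 stayed called whichever liver was left out, 75 with the 9 livers alone, 59 with the 6 arrays alone, 103 with quantile normalisation, 106 with median centring, 107 with the replicate block, 108 with rat as a block and 10 with Holm adjustment; none reversed under the 18 settings. The causes were not tested, except that fewer arrays give fewer degrees of freedom.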

Other observations

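Some members of gene families outside the lists also differed between day 25 and day 10 livers, where 5.33% of all genes rose and 3.77% fell. These families were chosen after values were seen and get no test as a group. The called shares of keratins and SLC22 transporters lay near those of all genes. Of 10 annexins, calcium-dependent membrane-binding proteins, 3 rose, with changes of 1.56 for Anxa1, 1.5 for Anxa5 and 1.42 for Anxa2, and all 3 rose without rat 7. Anxa1 had levels of 10.09, 9.32 and 8.63 in day 25 livers, against 7.96, 8.09 and 7.32 in day 10 livers. Of 14 S100 proteins 5 rose, S100a11, S100a10 and S100a6 by 1.73, 1.69 and 1.63 besides S100a8 and S100a9, and 6 rose without rat 7. Among 25 keratins, Krt8 and Krt18 rose by 1.46 and 1.44, and Krt8 was not called without rat 7 (1.01, adjusted p = 0.168). Which cells their transcripts came from was not tested. Krt8 had levels of 12.73, 11.99 and 10.76 in day 25 livers, against 10.55, 10.14 and 10.41 in day 10 livers, and Krt18 had 12.73, 12.51 and 11.87 in day 25 livers, against 11.32, 10.63 and 10.85 in day 10 livers. The bile duct keratins Krt19 and Krt7 were not called, with Krt7 at 6.42, 5.27 and 5.51 in day 25 livers, against 5.19, 5.61 and 5.88 in day 10 livers.

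Some genes in families of detoxifying enzymes fell. Of 5 carboxylesterases 3 fell, Ces1c and Ces1e with changes of -2.61 and -2.11 besides Ces1d; without rat 7 Ces1d alone was called (adjusted p = 0.159 for Ces1c and 0.0534 for Ces1e). Of 15 aldo-keto reductases 5 fell and 1 rose, and without rat 7, 2 fell and 2 rose. The riser, Akr1b7, had levels of 4.85, 8.56 and 8.24 in day 25 livers, against 4.64, 4.18 and 4.48 in day 10 livers, so that rats 8 and 9 were high and rat 7 lay near the day 10 livers; its change was 2.79 (adjusted p = 0.0122), and 3.97 without rat 7. Akr1c1 fell by 2.30. Of 17 aldehyde dehydrogenases 5 fell and 1 rose, and none was called without rat 7. Among 4 flavin monooxygenases Fmo5 rose by 2.09 and Fmo1 and Fmo4 fell, with changes of -2.53 and -0.85; without rat 7 Fmo1 alone was called. Of 16 SLC22 transporters, Slc22a5, the carnitine carrier, rose by 1.35 (adjusted p = 0.00022) and Slc22a8, an organic anion carrier, fell by 2.62, the second uncalled without rat 7 (adjusted p = 0.098). Of 18 Rgs proteins Rgs4 and Rgs2 rose by 2.18 and 1.23 besides Rgs5, and Rgs17 fell by 0.45, with the same counts without rat 7.

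The day 25 liver of rat 7 was more than 1 log2 unit above all other 8 livers for 214 genes and more than 1 below all of them for 177; among the other 8 livers the highest such counts were 11 above and 2 below. Among the genes farthest above, the arrestin-family protein Arrdc4 had 10.21 in rat 7 and 5.91 to 6.44 in the other 8 livers, the oxygen sensor Egln3 had 8.03 in rat 7 and 4.01 to 4.75 in the others, the endothelial proteoglycan Esm1 had 8.05 in rat 7 and 3.86 to 4.68 in the others, and the stress protein Nupr1 had 12.58 in rat 7 and 9.07 to 9.82 in the others. Among those farthest below, Serpina6, the corticosteroid carrier of plasma, had 5.15 in rat 7 and 10.40 to 12.79 in the others, and Fabp1, the liver fatty acid carrier, had 10.36 in rat 7 and 13.44 to 13.91 in the others. Ddit4, a stress gene, had levels of 10.37, 6.13 and 5.62 in day 25 livers, against 6.18, 6.64 and 7.46 in day 10 livers, and Igfbp1 had 13.79, 10.35 and 10.34 in day 25 livers, against 10.90, 10.70 and 11.28 in day 10 livers. Neither was called.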
